A study of Mus musculus with 3 samples.

Results

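The secretoglobin genes were followed through the cells of the adult mouse lacrimal gland (LG), the gland that makes the watery part of the tear film. Members were chosen by name alone: of 32285 genes in the feature table, 34 have a symbol that starts with Scgb. At least 1 UMI (unique molecular identifier, which stands for 1 captured transcript) was present in the kept cells for 33 of them, and Scgb3a2, with 0 UMIs, was dropped. The 33 members are 15 alpha genes (Scgb1b), 14 beta genes (Scgb2b) and 4 genes outside both groups (Scgb1a1, Scgb1c1, Scgb2a2 and Scgb3a1).

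The cells came from 1 female and 2 male libraries, each made from 6 glands of 3 untreated C57BL/6J mice aged 2 months, with the Chromium Single Cell 3′ kit. Because glands of several animals were pooled, each library counts as 1 sample, and the spread between cells and the spread between animals cannot be told apart within it. The female library was prepared on another day and at another sequencing core than the male libraries, so sex, day and core cannot be told apart. Sex was not tested, since only 1 library was female. After removal of low-quality barcodes and likely doublets, 7652 cells (female), 5295 cells (male 1) and 5397 cells (male 2) were kept, with 37754290 to 55375501 UMIs per library. The libraries shared between 8 and 13 cell barcodes pairwise.

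Secretoglobins are small secreted proteins that form disulfide-linked dimers. In the mouse a large branch encodes the androgen-binding proteins (ABP) of saliva and tears, in which an alpha subunit from an Scgb1b gene is joined to a beta or gamma subunit from an Scgb2b gene. Most of these genes stand in head-to-head alpha and beta pairs in a cluster on chromosome 7 that has grown by repeated duplication. In exocrine glands the bulk of such product is made by acinar cells, drained by ducts and pressed out by myoepithelial cells (MECs).

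All 29 alpha and beta members lie on chromosome 7 between 31290508 and 34100837 (GRCm38, the build named mm10 in the submitters' processing notes), and 12 numbers occur both as an alpha and as a beta gene. In all 12 pairs the partners lie on opposite strands. In 11 of them 4486 to 13519 bases separate the partners, while Scgb1b2 (31290519 to 31291821, minus strand) lies inside the annotated span of Scgb2b2 (31290508 to 31304977, plus strand). Several members are near copies: in 19 of the 34 genes at least 1 stretch of 90 bases in the last 400 bases of a transcript, where 3′ reads fall, also occurs in another gene. The shared part covers all of these stretches in Scgb1b15, Scgb1b17, Scgb1b29, Scgb2b15 and Scgb2b17, 61.4% in Scgb1b7, 46.3% in Scgb1b20, 36.0% in Scgb2b20, 18.0% in Scgb2b7, 48.9% in Scgb2b12 and 0% in Scgb1b2, Scgb2b2, Scgb2b24, Scgb1b24, Scgb1b27 and Scgb2b27. How reads were divided among near copies by the authors' counting was not tested, so the split between such members is uncertain.

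The upstream windows of 6 members are shown because they belong to the pairs that the measurements below turn on. The first 2 belong to the leading pair of all libraries, the next 2 to the beta genes of the pairs that were high in the male libraries, the fifth to a beta gene seen almost only in the male libraries, and the sixth to the beta gene found in Car6-high-like cells. Each runs 5′ to 3′ from 250 bases before to 50 bases after the RefSeq transcription start (GRCm38.p6). Capitals mark AGAACA, the half-site of steroid hormone response elements, and TATAAA, the letters of the TATA box, on either strand and anywhere in the window.
Scgb2b2, chr7:31302519-31302818, plus strand: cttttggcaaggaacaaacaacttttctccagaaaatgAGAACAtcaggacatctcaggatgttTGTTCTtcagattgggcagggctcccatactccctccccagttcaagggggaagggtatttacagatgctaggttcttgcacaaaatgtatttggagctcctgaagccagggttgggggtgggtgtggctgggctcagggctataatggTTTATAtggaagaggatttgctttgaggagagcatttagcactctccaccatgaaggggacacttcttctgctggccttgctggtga
Scgb1b2, chr7:31291767-31292066, minus strand: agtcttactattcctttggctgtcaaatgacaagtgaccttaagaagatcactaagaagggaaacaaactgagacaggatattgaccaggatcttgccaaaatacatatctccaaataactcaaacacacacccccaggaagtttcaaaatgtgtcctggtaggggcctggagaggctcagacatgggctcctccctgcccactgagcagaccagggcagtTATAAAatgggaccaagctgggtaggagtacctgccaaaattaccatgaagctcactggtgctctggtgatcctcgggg
Scgb2b7, chr7:31705705-31706004, minus strand: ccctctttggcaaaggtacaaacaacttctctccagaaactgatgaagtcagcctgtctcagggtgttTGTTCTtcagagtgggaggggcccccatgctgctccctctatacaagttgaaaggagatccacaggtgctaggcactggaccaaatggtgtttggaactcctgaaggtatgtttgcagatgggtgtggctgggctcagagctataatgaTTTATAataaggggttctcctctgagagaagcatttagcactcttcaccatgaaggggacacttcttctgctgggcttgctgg
Scgb2b20, chr7:33366270-33366569, minus strand: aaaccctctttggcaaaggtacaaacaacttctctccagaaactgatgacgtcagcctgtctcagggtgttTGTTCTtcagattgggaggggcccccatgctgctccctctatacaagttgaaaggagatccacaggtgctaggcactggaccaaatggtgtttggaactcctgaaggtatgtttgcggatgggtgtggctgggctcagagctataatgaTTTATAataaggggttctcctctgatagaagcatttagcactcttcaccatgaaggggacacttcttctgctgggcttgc
Scgb2b12, chr7:32327196-32327495, minus strand: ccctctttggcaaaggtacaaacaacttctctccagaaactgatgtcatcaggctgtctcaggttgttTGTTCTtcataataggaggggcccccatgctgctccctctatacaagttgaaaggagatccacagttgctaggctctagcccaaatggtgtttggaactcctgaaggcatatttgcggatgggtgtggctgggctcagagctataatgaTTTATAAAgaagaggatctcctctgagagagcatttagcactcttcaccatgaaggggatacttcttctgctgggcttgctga
Scgb2b27, chr7:34013893-34014192, minus strand: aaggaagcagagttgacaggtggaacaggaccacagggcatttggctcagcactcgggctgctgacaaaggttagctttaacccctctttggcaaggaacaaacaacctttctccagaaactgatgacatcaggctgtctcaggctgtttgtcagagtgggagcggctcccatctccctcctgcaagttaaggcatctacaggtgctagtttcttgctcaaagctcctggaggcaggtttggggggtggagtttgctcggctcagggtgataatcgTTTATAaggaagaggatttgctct

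RefSeq windows were at hand for 25 of the 34 genes. The beta windows resembled each other more (median identity 85.3% of aligned bases over 91 pairs of genes) than the alpha windows did (median 80.0% over 28 pairs), and those of Scgb2b7 and Scgb2b20 were identical at 98.7% of aligned bases. AGAACA occurred in 10 of 14 beta windows and 3 of 8 alpha windows, against 19.0% of all 32851 windows of this length. Near copies were counted separately here, so these windows are not independent. Those of Scgb2b15 and Scgb2b17 are 100% identical. The 3 alpha windows (Scgb1b10, Scgb1b15 and Scgb1b17) are 99 to 100% identical, each with AGAACA at position -21. In 9 beta genes (Scgb2b2, Scgb2b7, Scgb2b11, Scgb2b12, Scgb2b15, Scgb2b17, Scgb2b18, Scgb2b20 and Scgb2b24) it lay on the minus strand at nearly the same place, at positions -193 to -179 from the start, and it was found in neither strand of Scgb2b19, Scgb2b21, Scgb2b26 or Scgb2b27. TATAAA was found in 11 of 14 beta and 4 of 8 alpha windows, against 13.6% of all windows. In Scgb2b27, Scgb1b27 and Scgb1b30 it lay after the annotated start, at positions 27, 43 and 39, and so not upstream by this annotation. The full palindromic element, 2 such half-sites in opposite directions with 3 free bases between, was found in 3 of all windows and in 0 of the members' windows. These matches describe letters in a window and not sites that a factor was seen to bind.

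Cells were grouped without use of the secretoglobins: 268 genes, among them the members and the other tear products, were left out of the clustering. The groups were the Car6-high-like, Tfrc-high-like and other acinar-like cells, the Ltf+-like epithelial cells, duct-like cells, MEC-like cells and the non-epithelial cells (fibroblast-, endothelial-, mural-, lymphoid- and myeloid-like cells together). They held 580, 1346 and 1442 other acinar-like cells in the female, male 1 and male 2 libraries, but 65, 78 and 50 Car6-high-like cells and 73, 333 and 315 Ltf+-like cells. Duct-like cells had 4831 to 6636 CPM (counts per 1000000 UMIs) of their 8 markers summed and MEC-like cells 12611 to 13397 CPM of theirs, each above every other group. The 8 Tfrc-high markers summed to 2155 to 3968 CPM in the Tfrc-high-like cells and to at most 1405 CPM elsewhere. The 8 Ltf+ markers summed to 12875 to 15078 CPM in the Ltf+-like cells and to 3.39 to 151 CPM in any other group. The 5 Car6-high markers summed to 19595 to 36857 CPM in the Car6-high-like cells and to at most 2667 CPM elsewhere. The 7 acinar markers summed to 2710, 2398 and 2023 CPM in the other acinar-like cells (female, male 1 and male 2). They summed to 3903, 2817 and 2680 CPM in the Tfrc-high-like cells and to 6251 to 14824 CPM in the Car6-high-like cells. Ltf+-like cells had 1278 to 1883 CPM, and duct-like, MEC-like and non-epithelial cells 994 to 1243 CPM. On CPM over all UMIs the other acinar-like cells thus lay below both other acinar groups in each library. Tear products filled 90.4, 89.6 and 90.2% of their UMIs, against 60.4, 77.0 and 75.5% in the Tfrc-high-like cells. A larger share of tear products lowers the CPM of all other genes. Clusters were named on UMIs outside tear products and mitochondrial genes, and marker sums on that scale are not given here. Over all UMIs this list does not set the other acinar-like cells apart as the other lists do their groups.

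The secretoglobins were among the largest products of the gland. In the other acinar-like cells they made up 22.6% of all UMIs in the female library, 39.4% in male 1 and 42.1% in male 2, a mean of 34.7% ± 10.6 (SD, n = 3). Counting error was small beside this spread, with an exact 95% binomial interval of 6.34 to 6.44% in the female Car6-high-like cells, which were few. The Tfrc-high-like cells came next (14.0, 33.2 and 32.9%). The Ltf+-like cells had 13.3, 20.1 and 24.3% and the Car6-high-like cells 6.39, 25.8 and 19.7%. These summed shares rest on few cells: 4 of 73 female Ltf+-like cells and 3, 3 and 4 Car6-high-like cells held 50% of their group's family UMIs, and the medians over cells were 5.06, 16.3 and 15.7% and 4.67, 20.2 and 13.3%. In the summed UMIs, duct-like, MEC-like and non-epithelial cells had 6.66 to 7.32% in the female and 20.8 to 22.8% in the male libraries. The other acinar-like cells were highest in 3 of 3 libraries, and the order of the groups below the Tfrc-high-like cells differed between libraries.

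**Figure D1:**
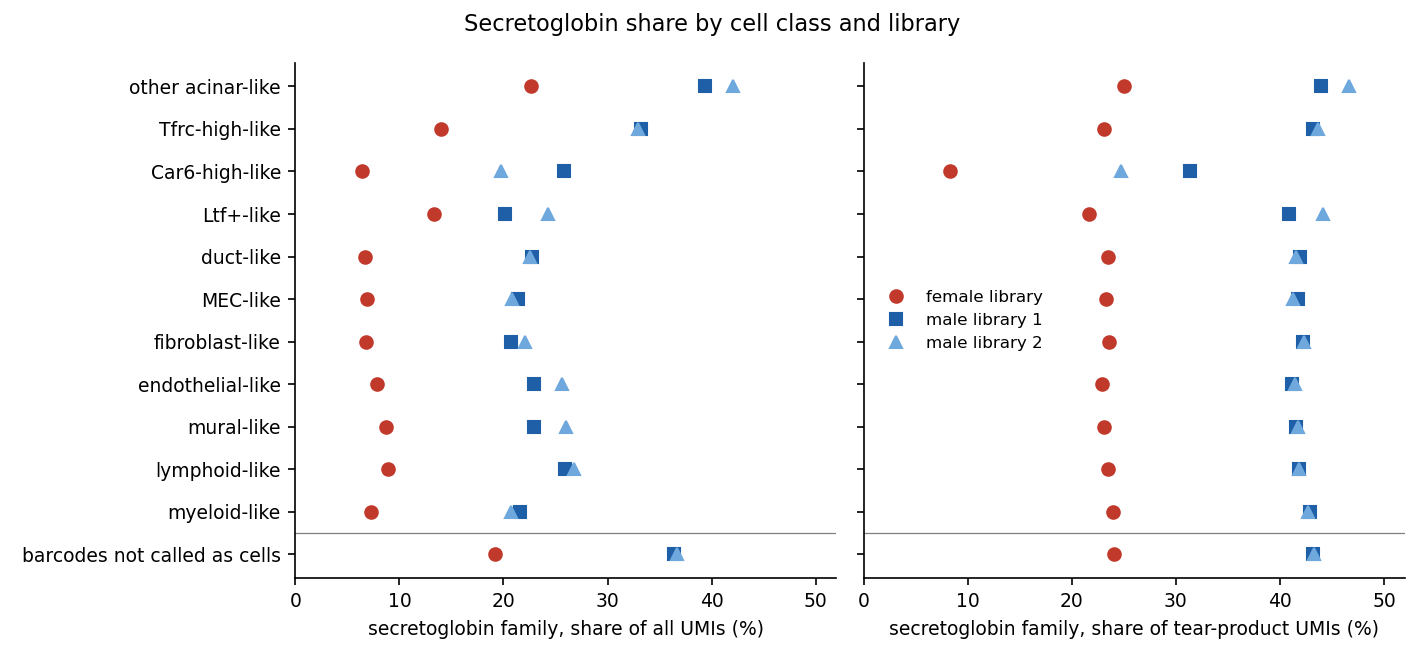
Share of the secretoglobin family in all UMIs (left, percent) and in the UMIs of tear products (right, percent) for each cell group, with 1 point per library. On the left the other acinar-like cells lie highest at 22.6, 39.4 and 42.1%. On the right all groups but the Car6-high-like cells lie near the level of the uncalled barcodes of 10 to 100 UMIs.

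The same family was also present where no cell was called. Uncalled barcodes of 10 to 100 UMIs, which hold RNA free in the suspension, carried 19.2% (female), 36.4% (male 1) and 36.6% (male 2) secretoglobin UMIs. In the female library all barcodes held 154532064 UMIs, called barcodes 63066640 and this set 67990. Uncalled barcodes above 100 UMIs were not used in any library, so the free RNA level rests on a small part of the uncalled UMIs. Relative to the UMIs of all 140 tear-product genes, the family took 24.0, 43.2 and 43.3% of this free RNA. The corresponding shares were 23.3 to 23.6% (female) and 41.3 to 42.3% (male) in duct-like, MEC-like and non-epithelial cells, and 25.0, 44.0 and 46.7% in the other acinar-like cells. The Car6-high-like cells stood apart with 8.25, 31.4 and 24.7%. The tear products include 10 salivary-type genes, which summed to 248674, 48.3 and 45.6 CPM in these cells. They lower the female share. The ratio of beta to alpha UMIs was 1.30 to 1.53 in the 7 groups.

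The leading members of duct-like, MEC-like and non-epithelial cells were, in the median, close to what free RNA gives. For each member the UMIs of a group were divided by those expected if all of its tear-product UMIs were free RNA, scaled by 10 abundant tear products other than secretoglobins. For the 7 leading members the median ratio was 0.974 to 1.01 over the libraries in duct-like, MEC-like and non-epithelial cells, 0.983 to 1.06 in Tfrc-high-like cells and 1.07 to 1.22 in the other acinar-like cells, but 0.424 to 0.682 in the Car6-high-like cells. Single leading members ranged from 0.565 (duct-like, female) to 1.25 (non-epithelial, male 1) in the first 3 groups. The Ltf+-like cells had 0.419 in the female library and 0.982 and 1.11 in the male libraries. In the Car6-high-like cells the ratios depend on which tear products are used for scaling. Mucl2, 1 of the 10, had 63138, 111754 and 92168 CPM there (female, male 1 and male 2). In the other acinar-like cells it had 210160, 113661 and 112647 CPM, so it was far lower only in the female library. By a fixed limit, more than 2 times the expected UMIs in 3 of 3 libraries with at least 10 UMIs in each, only Scgb2b11 lay above free RNA, in the other acinar-like cells with 13, 102 and 83 UMIs. Under 0.5 times the expected UMIs in 3 of 3 libraries were Scgb2a2 in the Car6-high-like cells, Scgb2b21 in the other acinar-like and the non-epithelial cells, and Scgb2b27 in the other acinar-like cells. The verdicts on Scgb2b11, Scgb2b21 and Scgb2b27 rest on 0, 1 or 2 UMIs per library in the free RNA. No test was made of these ratios, since an exact sign-flip test over 3 libraries cannot go below a p of 0.25. A level outside the other acinar-like cells is thus given below as a measured level. How much of it the cells of such a group made was not tested, also for the Tfrc-high-like and Car6-high-like cells.

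A few genes supplied nearly all of the family. In the other acinar-like cells 7 members (Scgb2b2, Scgb1b2, Scgb2b24, Scgb1b20, Scgb2b20, Scgb1b7 and Scgb2b7) held 99.2, 95.1 and 96.7% of the family UMIs in the female, male 1 and male 2 libraries. The counting of 1 UMI per 3′ end does not scale with transcript length, so levels of different genes are compared on CPM. Scgb2b2 was highest with 79203 CPM (female), 93204 CPM (male 1) and 111036 CPM (male 2). Its alpha partner Scgb1b2 followed with 75260, 78396 and 91836 CPM. The beta gene Scgb2b24 came next with 45700, 74342 and 68637 CPM. It was followed by the alpha gene Scgb1b20 with 8220, 39523 and 41891 CPM. This order was the same in the 3 libraries, with neighbouring exact 95% Poisson intervals (counting error only) that did not overlap within a library. Below it the order changed: Scgb1b7 (6095, 28173 and 31678 CPM) stood above Scgb2b20 (5887, 32737 and 33252 CPM) in the female library and under it in both male libraries. Scgb2b7 had 3998, 28385 and 28666 CPM. Next in both male libraries was Scgb1b3 at 6.71, 13777 and 8300 CPM, and next in the female library Scgb1b24 at 1235 CPM. Among the alpha and beta genes the lowest counts were those of Scgb1b15 and Scgb1b17 at 0 to 1 UMI per library. All of their 3′ stretches are shared with other genes, so these counts are not a sure level. Scgb1c1 and Scgb1a1 had 0 UMIs in these cells.

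**Figure D2:**
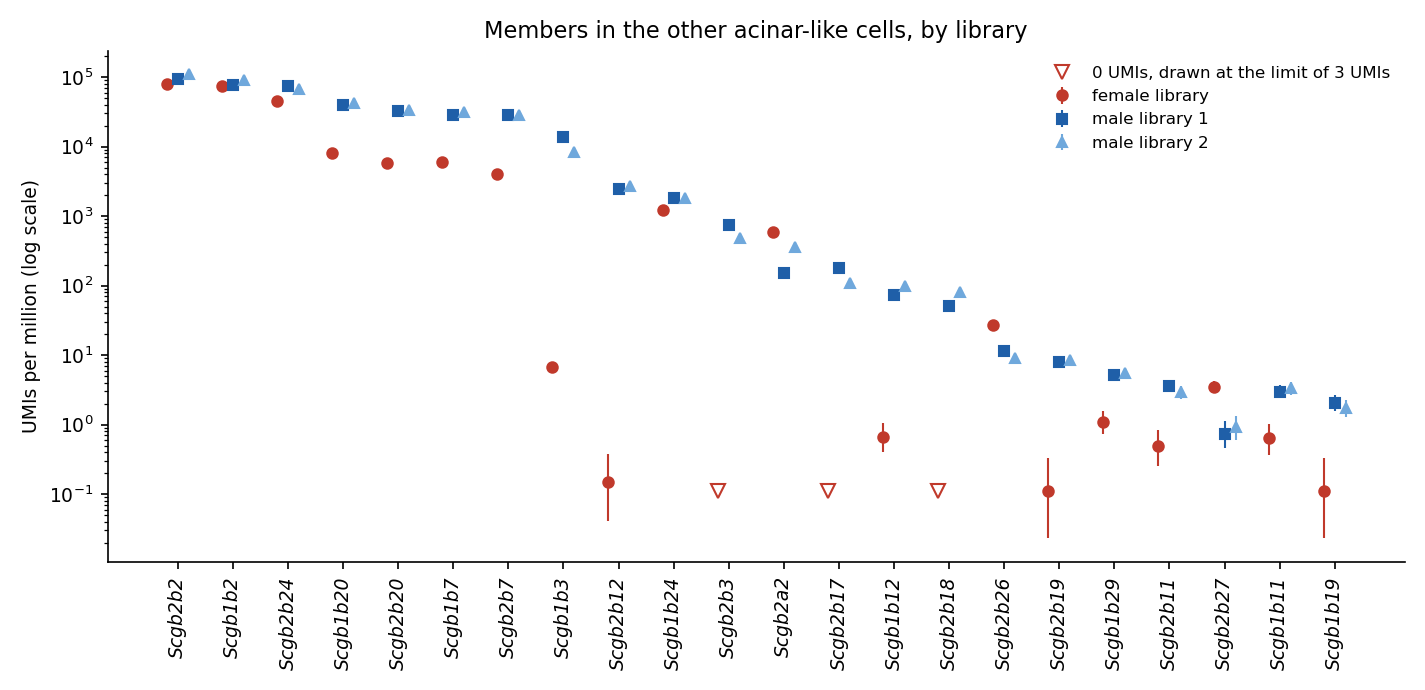
Level of secretoglobin members in the other acinar-like cells of each library, in CPM on a log axis, ordered by level, with exact 95% Poisson intervals as bars and open triangles at the limit of 3 UMIs where the count was 0. Scgb2b2, Scgb1b2 and Scgb2b24 lie at 45700 CPM or more in every library, while the members of pairs 3, 7, 12 and 20 lie lower in the female library than in both male libraries.

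The make-up of the family differed between the female and the male libraries. Pair 2 (Scgb2b2 and Scgb1b2) held 68.3% of the family UMIs of the other acinar-like cells in the female library, 43.5% in male 1 and 48.2% in male 2. Pairs 7 and 20 together held 10.7, 32.7 and 32.2%, and pairs 3 and 12 together 0.00333, 4.33 and 2.75%. The female value lay outside the range of both male libraries in each case. These groups of pairs were chosen after their values had been seen.

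Members with at least 100 UMIs in the other acinar-like cells were compared between libraries. In 15 of them the female CPM was under 0.5 times that of the lower male library. In 2 it was over 2 times that of the higher male library. Members with fewer UMIs, among them Scgb1b27, were not judged. The share of all genes beyond these limits was not counted, so these counts cannot be read as particular to the family. Wide gaps were found in members with no or few female UMIs. Scgb2b3 had 0, 21461 and 13747 UMIs, so its mean male CPM was at least 5525-fold higher than the female level that 3 UMIs would give. Scgb2b17 had 0, 5042 and 3157 UMIs, at least 1287-fold higher on the same footing, and Scgb2b18 had 0, 1473 and 2294 UMIs, at least 591-fold higher. Scgb2b12 had 4, 69979 and 77261 UMIs, or 0.149 (exact 95% Poisson interval 0.0406 to 0.382), 2459 and 2705 CPM. The alpha genes of these numbers followed where they had counts: Scgb1b3 had 180, 392082 and 237076 UMIs and Scgb1b12 had 18, 2115 and 2801 UMIs. In all of these genes both male libraries were high and the female library was at or near 0.

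Other members of the 15 had a clear female level. Scgb1b20 and Scgb2b20, given above, had a mean male CPM of 4.95 and 5.60 times the female CPM, and Scgb1b7 and Scgb2b7 of 4.91 and 7.13 times. The opposite direction was found for Scgb2b26, a beta gene without a numbered partner in the table, with 26.98 (25.1 to 29.0), 11.3 (10.1 to 12.6) and 9.07 (7.997 to 10.2) CPM, and for Scgb2b27 with 3.50 (2.83 to 4.29), 0.738 (0.457 to 1.13) and 0.910 (0.595 to 1.33) CPM. Scgb2a2, the mouse gene of the mammaglobin type on chromosome 19, was also highest in the female library, with 583, 154 and 358 CPM, but the 2 male libraries differed from each other by more than 2 times. Scgb1b24, with 1235, 1809 and 1796 CPM, fell in neither set, nor did Scgb2b2, Scgb1b2 and Scgb2b24. The count of 15 was the same on CPM over UMIs outside the tear products, 16 with doublets kept and 17 over all kept cells, and the count of 2 became 3 over all kept cells.

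Alpha and beta partners of a pair were in balance in some pairs and far apart in others. In the other acinar-like cells the ratio of alpha to beta UMIs was 0.9502 (female), 0.841 (male 1) and 0.827 (male 2) in pair 2. It was 1.52, 0.993 and 1.11 in pair 7 and 1.40, 1.21 and 1.26 in pair 20. Pair 24 was led by its beta gene in every library, with ratios of 0.0270, 0.0243 and 0.0262, and so was pair 12 in the males, with 0.0302 and 0.0363. Pair 3 was led by its alpha gene, with ratios of 18.3 and 17.2 in the males. For pairs 2 and 24 no stretch of 90 bases at the 3′ end is shared with another gene, whereas for pairs 7, 12 and 20 part of the 3′ end is shared.

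Within the female library, pairs 7 and 20 varied widely from cell to cell. Among 449 other acinar-like cells with at least 500 family UMIs, their joint share of the family had a median of 9.56%, with 5th and 95th percentiles of 0.458 and 25.1% and extremes of 0.0800 and 31.0%. In the male libraries the median was 32.0% over 1336 cells and 31.3% over 1432 cells, and the 5th percentiles were 26.7 and 25.7%. A share under 2% was found in 80 of the 449 female cells and in 0 male cells. With at least 5000 family UMIs per cell, 52 of 285 female cells lay under 2%, and again 0 of 590 and 0 of 739 male cells. These limits were chosen after the values had been seen.

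**Figure D3:**
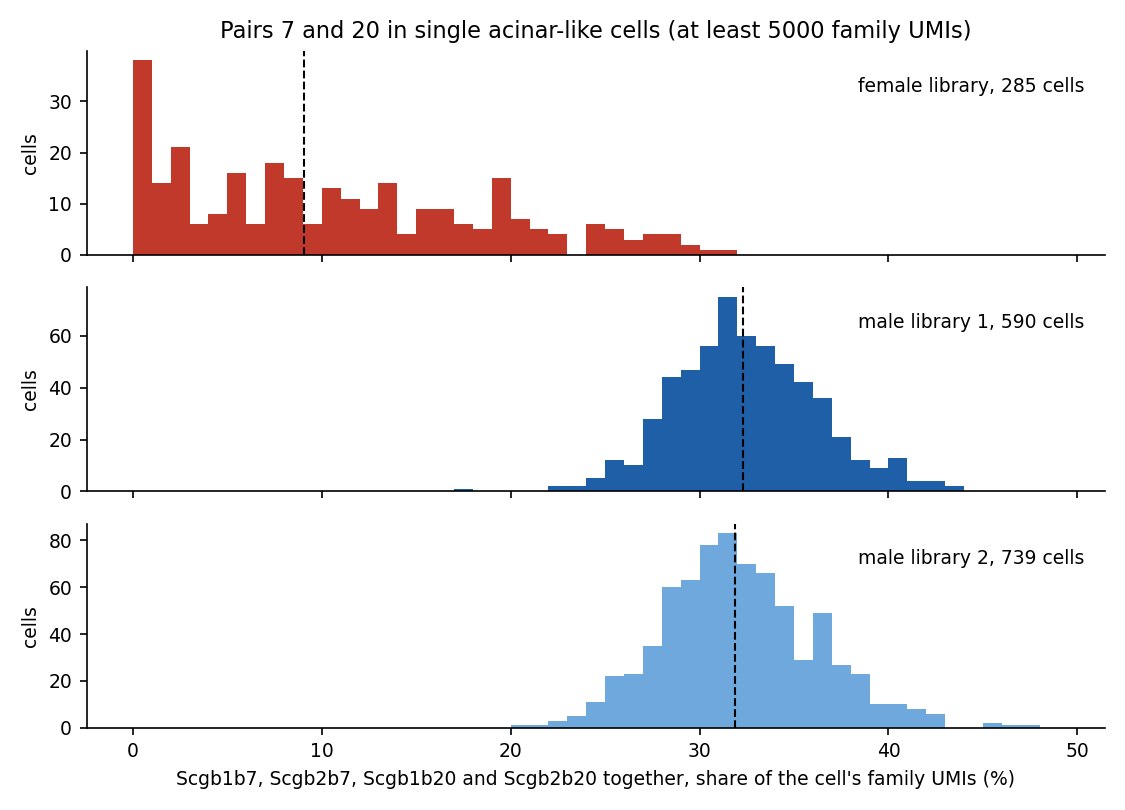
Number of other acinar-like cells (y axis) by the share of pairs 7 and 20 in their secretoglobin UMIs (percent, x axis), for cells with at least 5000 family UMIs, with 1 panel per library and a dashed line at the median. The 285 female cells spread from 0.0800 to 31.0% around a median of 9.04%, while the 590 and 739 male cells each form a single peak around 32.3 and 31.9%.

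Depth was compared only among the 285 female cells with at least 5000 family UMIs, so shallow cells are left out. The 52 cells with a share under 2% had a median of 78339 UMIs and 17268 family UMIs, against 59792 UMIs and 15218 family UMIs in the 42 cells with a share of 20% or more. In the first group pair 2 took a median of 82.6% of the family and in the second 53.0%. Female cells of different acinar clusters differed in the median share, which was 18.2% in cluster 3, 10.1% in cluster 0, 10.4% in cluster 2 and 5.04% in cluster 8, but cells under 2% were found in all 4 (3 of 90, 18 of 115, 9 of 80 and 50 of 164 cells). The female pool held 3 animals, and whether these cells come from 1 of them or from each cannot be told apart.

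The 2 genes of a pair moved together over cells to different degrees. Over the 449 female cells, as a description across cells of 1 library that share their free RNA, the Spearman correlation of the shares of Scgb1b7 and Scgb2b7 in the family was 0.96, that of Scgb1b20 and Scgb2b20 0.95, that of pair 2 0.75 and that of pair 24 0.35. In the male libraries, where pairs 7 and 20 had the narrower ranges given above, the values were 0.20 and 0.31 (pair 7), 0.32 and 0.43 (pair 20), 0.59 and 0.47 (pair 2) and 0.26 and 0.30 (pair 24). Pair 3 had 0.62 and 0.57 in the males and pair 12 had 0.47 and 0.56. By the same measure the member most like Scgb1b7 in both male libraries was the alpha gene Scgb1b20 (0.62 and 0.67), and that most like Scgb2b7 was Scgb2b20 (0.53 and 0.59), the near copies with which each shares 3′ sequence. Scgb2b17 and Scgb2b18 were most like each other (0.45 and 0.54). Shares of one whole sum to 100%, so the larger members are pushed toward negative values, down to -0.87 between Scgb1b2 and Scgb2b20 in the female library.

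**Figure D4:**
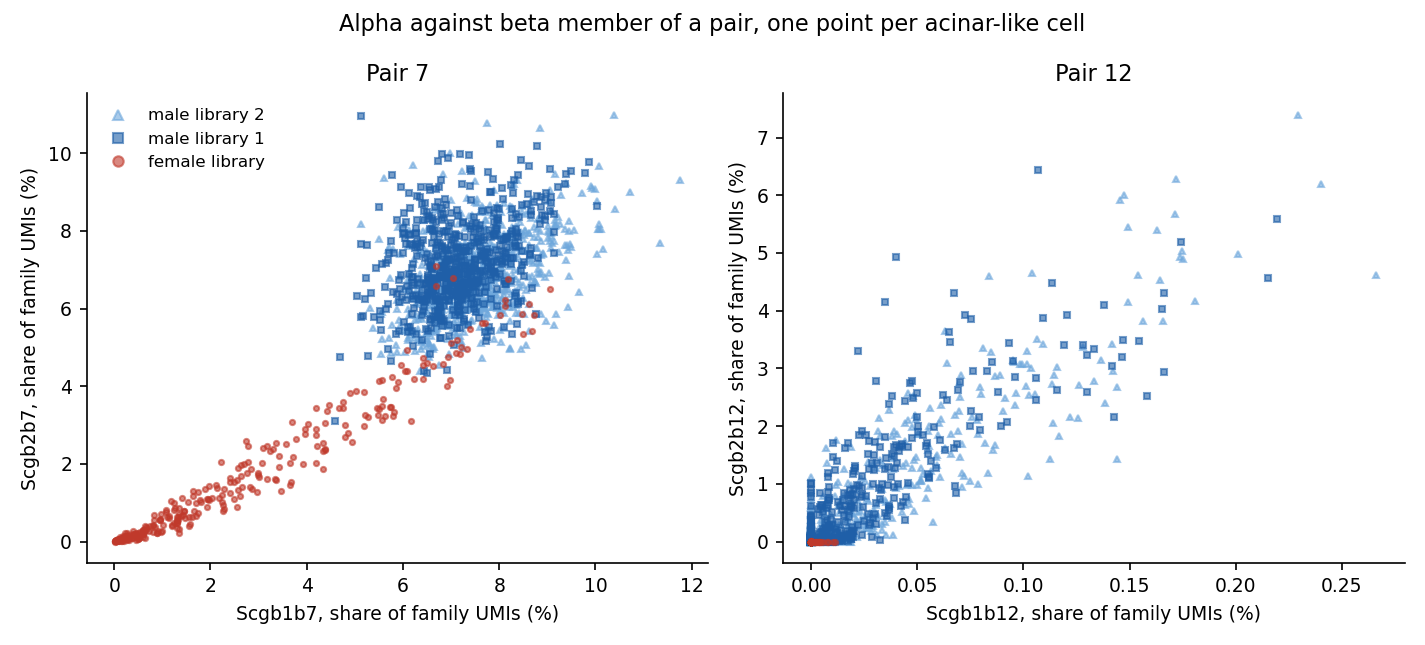
Share of the alpha gene (x axis) against the share of the beta gene (y axis) in the secretoglobin UMIs of single other acinar-like cells with at least 5000 family UMIs, in percent, with 1 point per cell and colours for libraries. For pair 7 the female cells run along a line from near 0 upward (Spearman correlation 0.98 over 285 cells) and the male cells form a cloud (0.29 and 0.44), while in pair 12 the male cells spread along a line (0.72 and 0.75).

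Scgb2b12 was unevenly spread over male cells. Among cells with at least 5000 family UMIs, 46 of 590 (male 1) and 49 of 739 (male 2) held 50% of its UMIs, and its share of the family had a median of 0.0564 and 0.0833% with a 95th percentile of 2.95 and 3.01%. The SD between cells was 1.03 and 1.11 percentage points, against 0.0719 and 0.0758 that counting alone gives. For Scgb2b20 the 95th percentile was 10.5 and 10.2% around a median of 8.09 and 7.77%. Its partner Scgb1b12 had 50% of its UMIs in 40 and 47 cells, and Scgb2b20 in 164 and 228 cells, so pair 12 was held by fewer cells.

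The comparison of cell groups asked where the members were higher or lower than in the other acinar-like cells. UMIs were summed per library and group and tested with edgeR's quasi-likelihood test over 9110 genes, with library as a block and p-values adjusted by Benjamini-Hochberg. 18 members passed the filter on low counts (7 alpha, 10 beta and Scgb2a2), and the other 15 were too low to test. All comparisons share the other acinar-like cells as reference and are not independent of each other. In the Tfrc-high-like cells 16 members were lower and 0 higher, where 20.1% of all genes tested were lower and 12% higher. In the Ltf+-like cells 16 were lower and 0 higher (18.9 and 18.9% of all genes). In duct-like cells 17 were lower and 0 higher (25.9 and 29.3%), and the same was found in MEC-like cells (26.9 and 29.1%) and in non-epithelial cells (31.1 and 37.5%). In the Car6-high-like cells 16 were lower and 2 higher (4.28 and 2.03%).

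The tested members had larger negative changes than the genes as a whole. The median log2 fold change of the tested members was -3.79 in duct-like cells (alpha -3.82, beta -3.69), -3.97 in MEC-like, -3.60 in non-epithelial, -3.60 in Ltf+-like, -2.57 in Tfrc-high-like and -2.42 in Car6-high-like cells, beside medians between -0.34 and 0.10 over all genes. With free RNA subtracted, the members' medians were -7.50 in duct-like, -8.22 in MEC-like, -7.19 in non-epithelial and -4.41 in Tfrc-high-like cells. The amount subtracted per cell counted all UMIs of the 10 scaling tear products in non-epithelial cells as free RNA. The larger changes there, and in groups with a like make-up of tear products, were thus largely set in advance. Scgb2b2, with 23171, 50717 and 57297 CPM in duct-like cells against the values above, had a log2 fold change of -3.90 (SE 0.47, adjusted p = 1.1e-08 in edgeR). Scgb2b2 lay lower in duct-like cells than in the other acinar-like cells in 3 of 3 libraries. The tear products used for scaling moved with the members: 10 of 10 were lower in the same 5 groups and 4 of 10 in the Car6-high-like cells, and their part in the result was not tested.

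These sizes depend on the scaling, because tear products fill about 90% of the UMIs of the other acinar-like cells (89.6 to 90.4%) and 28.4 to 54.4% of those of the duct-like, MEC-like and non-epithelial cells. With total UMIs in place of TMM factors, the median of all genes shifted up by 2.72 (duct-like), 2.83 (MEC-like), 2.497 (non-epithelial), 2.27 (Ltf+-like), 2.08 (Tfrc-high-like), 0.85 (Car6-high-like) on the log2 scale, and the lower calls fell from 45.3 to 67.8% of all calls to 0.0806 to 5.01%. On total UMIs 15 members were lower in duct-like, 15 in MEC-like, 16 in non-epithelial, 16 in Ltf+-like and 15 in Car6-high-like cells, but 1 in Tfrc-high-like cells, with 2, 2, 2, 2, 2 and 1 higher. On this scale Scgb2b2 in the Tfrc-high-like cells (48396, 79664 and 87393 CPM) had a log2 fold change of -0.44 (SE 0.24, adjusted p = 0.11 in edgeR). As plain CPM, the log2 ratio of Scgb2b2 to the other acinar-like cells was -1.77 to -0.57 in the Car6-high-like, Ltf+-like, duct-like, MEC-like and non-epithelial cells of the 3 libraries.

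The 2 members higher in the Car6-high-like cells were the partners Scgb1b27 and Scgb2b27. Scgb1b27 had 992, 12.1 and 22.8 CPM there (female, male 1 and male 2) against 2.01, 0.176 and 0.210 CPM in other acinar-like cells. Its log2 fold change was 7.29 (SE 0.46). Scgb2b27 had 1180, 14.5 and 68.5 CPM against 3.50, 0.738 and 0.910 CPM, a log2 fold change of 5.97 (SE 0.49). The groups did not overlap, but the male values rest on 5 and 5 UMIs of Scgb1b27 and 6 and 15 UMIs of Scgb2b27. Without the female library both genes were too low to be tested. They thus passed the filter only through the library where they were high, and their p-values are not given as support. As plain CPM, the log2 ratio to the other acinar-like cells was 6.102 and 6.76 for Scgb1b27 and 4.29 and 6.23 for Scgb2b27 in the male libraries.

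In the female library the pair was held by few cells. The Car6-high-like cells carried 2306 of its UMIs, or 60.1% of those in all kept female cells, and 23 of 65 cells with at least 10 UMIs of the pair held 2239 of them. Those 23 cells also held 132354 UMIs of Bpifa2, 56387 of Smr3a and 34622 of Amy1, which encode proteins known from saliva. Of the other salivary-type genes they held 9340 UMIs of BC037156 and 3381 of Ggh. Few or none were of Dcpp1 (23), Prol1 (9), Dcpp3 (2), Dcpp2 (0) and Muc19 (0). The 10 salivary-type genes, a list of which the study chose part on these samples, summed to 248674 CPM in the female Car6-high-like cells and to 48.3 and 45.6 CPM in the male ones, with 2, 9 and 9 of the 10 genes at 0. Of 6 that could be tested 6 were higher in the Car6-high-like cells, beside 2.03% of all genes, and 5 of these 6 were at 0 in the male Car6-high-like cells. Bpifa2 was at 0 UMIs in the 7 groups of both male libraries, while the male Car6-high-like cells held 11 and 20 UMIs of the pair. The part of the salivary-type genes in the result was not tested. In the unnamed epithelial cluster 10 of the female library, 2 cells held 284 UMIs of the pair with 7 UMIs of Bpifa2. The limit of 10 UMIs per cell was set after the values had been seen.

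**Figure D5:**
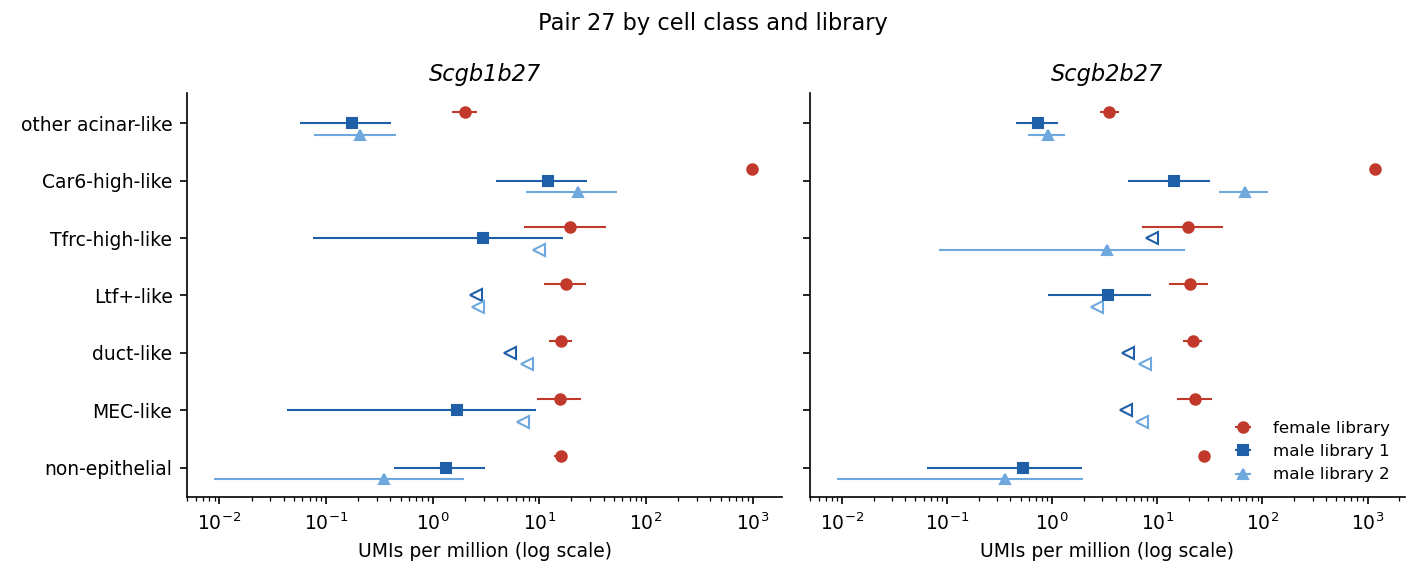
Level of Scgb1b27 and Scgb2b27 in each cell group and library, in CPM on a log axis, with exact 95% Poisson intervals as bars and open triangles at the limit of 3 UMIs where the count was 0. The Car6-high-like cells lie highest in each library, at 992 and 1180 CPM in the female library and between 12.1 and 68.5 CPM in the male libraries.

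The other 16 tested members were called lower in the Car6-high-like cells. Scgb2b2 had 23631, 62240 and 54591 CPM there, a log2 fold change of -2.23 (SE 0.44, adjusted p = 9.5e-04 in edgeR), a call that was lost without male 2 (-2.29). Its CPM was below that of the other acinar-like cells in 3 of 3 libraries. Scgb2b12, at 0.942 (1 UMI), 748 and 812 CPM, was lower in both male libraries, with a log2 fold change of -2.83 (SE 0.36, adjusted p = 8.9e-07 in edgeR). Pair 2 held 70.9, 44.3 and 50.7% of the family in the Car6-high-like cells, against 68.3, 43.5 and 48.2% in the other acinar-like cells. Without a library block 2 members were called lower and with free RNA subtracted 4, so the number of calls in this group depends on both settings.

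In the Ltf+-like cells of the female library pairs 7 and 20 held 3.97% of the summed family UMIs, under the 10.7% of the other acinar-like cells. The median over its 15 cells with at least 500 family UMIs was 10.5%, and 4 cells held 50% of the family UMIs of this group, so the summed share belongs to a few cells. In the male libraries the Ltf+-like share was 32.2 and 32.2%, as in the other groups.

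Acinar cells also differ in their mitochondrial RNA, and the other acinar-like cells were therefore split at the median mitochondrial share of their own library, taken over UMIs outside the tear products. Each arm is a range and not a cell type. Mitochondrial genes were then left out of the UMIs of both arms, also where total UMIs are named. Of 25 members tested (11 alpha, 13 beta and Scgb2a2), 22 were lower and 0 higher in the arm of high mitochondrial share, where 21.5% of 9129 genes were lower and 22.4% higher. RNA content moved with the split: at equal cell numbers the high and low arms held 10226647 and 16252816 UMIs in the female library, 3604357 and 24461415 in male 1 and 4583546 and 23621251 in male 2. Its part in the result was not tested. Scgb2b27, Scgb1b27 and Scgb1b19 were not called, at log2 fold changes of -0.55, -0.25 and -0.79. The median of the members was -1.20, beside 0.14 over all genes, and 10 of 10 scaling tear products were lower too. Scgb2b2 had a log2 fold change of -0.95 (SE 0.27, adjusted p = 0.0044 in edgeR), and its call was lost without male 1 (-0.89) or male 2 (-0.85).

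The direction in this split turned with the scaling. On total UMIs the median of all genes shifted up by 1.14, 2 members were lower and 1 higher, and Scgb2b2 had a log2 fold change of 0.20 (SE 0.06, adjusted p = 0.0037 in edgeR) and Scgb1b2 of 0.12 (adjusted p = 0.070). The lower calls made up 48.9% of all calls with TMM and 1.26% on total UMIs. As a share of UMIs outside mitochondrial genes, the family took 24.5% in the high against 22.0% in the low arm of the female library. The shares were 41.8 against 39.7% in male 1 and 42.1 against 42.7% in male 2. Leaving out mitochondrial genes raises the share more in the high arm, and shares with these genes included were not taken. Without male 2 the number of lower members fell to 13, and without the library block to 1.

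Members outside the alpha and beta groups were few and differed in place. Scgb2a2 was called lower in 6 of 6 groups. Scgb3a1, known from airway epithelium, had 31 UMIs in all, and 24 of them fell in endothelial-like cells (16, 4 and 4), where its level was 6.103, 5.66 and 6.96 CPM against 0.0373, 0.0351 and 0.140 CPM in the other acinar-like cells. No Scgb3a1 UMI was found in the free RNA. Scgb1c1 had 7 UMIs, of which 5 were in MEC-like cells (4, 1 and 0) and 2 in duct-like cells. Scgb1a1, the club cell protein of the airway, had 1 UMI. At such counts no difference could be tested for these 3 genes.

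Of 12 regulators of the secretory program 11 could be tested. In the non-epithelial, MEC-like and duct-like cells 9, 8 and 7 were lower and 1, 1 and 3 higher. Of all genes 31.1, 26.9 and 25.9% were lower there and 37.5, 29.1 and 29.3% higher. In the Ltf+-like cells 4 were lower and 5 higher (18.9 and 18.9% of all genes). In the Tfrc-high-like cells 1 was lower and 2 higher (20.1 and 12%), and in the Car6-high-like cells 0 and 2 (4.28 and 2.03%). In the arm of high mitochondrial share 12 could be tested, with 1 lower and 6 higher (21.5 and 22.4%). Counts of this list under other scalings are not given here.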

How the data were processed

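UMI counts per gene and barcode were deposited by the authors as Cell Ranger 6.1.2 output on mm10, uncorrected for ambient RNA. The annotation release is not given in the sources used here. Barcodes called as cells were kept above 500 UMIs and 200 genes where under 15% of UMIs were mitochondrial. The highest Scrublet scores (scanpy 1.11.5), at 0.8% per 1000 barcodes, removed 287 to 646 cells per library as doublets. Cells were clustered with Seurat 5.3.0 and sctransform 0.4.2 without 268 genes, 140 of them tear products, at resolution 1. Clusters were named from marker lists, and unnamed clusters 5 and 10 and a small mast-like cluster entered no test.

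UMIs were summed per library and group and tested in edgeR 4.0.16 (R 4.3.3, TMM, filterByExpr, library as a block, quasi-likelihood, Benjamini-Hochberg over all genes, called at an adjusted p under 0.05), since each library holds every group. With library as a block, the p-values measure how differences between groups vary over the 3 libraries. All groups of a fit share an estimate of this spread. DESeq2 1.42.0 was an alternative, and the fits were tested on simulated data. Levels are CPM with exact Poisson intervals, for counting error only.

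Gene positions are from GENCODE vM21 (GRCm38), in which 32158 of 32285 gene identifiers were found. Members and lists were chosen with earlier results of these data known. Members were named with values where they held at least 1% of the acinar family UMIs in a library, were higher in another group in 3 of 3 libraries with at least 10 UMIs each, had the 3 largest or 3 smallest female to male ratios among members with at least 100 UMIs, formed a numbered pair with at least 100 UMIs each, or lay outside the alpha and beta groups. A list of hormone-related genes counted beside the family is not reported here.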

Additional observations from a re-analysis of the deposited data

Results flagged for a closer look

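Secretoglobin UMIs were also present in barcodes not called as cells, which enter no comparison of cell groups. In those of 10 to 100 UMIs they made up 19.2% (female), 36.4% (male 1) and 36.6% (male 2) of the UMIs. In the unnamed epithelial cluster 10 of the female library, outside all comparisons, Scgb1b27 stood at 132.9 CPM and Scgb2b27 at 143.9 CPM, where 2 of 68 cells held 284 of the 302 UMIs of the pair. The causes were not tested.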

How the results depend on the processing

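The number of members called lower depended on the library block and on the scaling. Without the replicate block it was 2 in Car6-high-like, 6 in Tfrc-high-like, 9 in Ltf+-like, 10 in duct-like, 11 in MEC-like and 11 in non-epithelial cells, and 1 in the arm of high mitochondrial share. No paired analysis was possible for the female against the male libraries because they share only 1 number and no test was made. On total UMIs, 1 member was lower and 1 higher in Tfrc-high-like cells, 2 were higher in each of the Ltf+-like, duct-like, MEC-like and non-epithelial cells, and 2 were lower and 1 higher in the arm. On the same scale the log2 fold change of Scgb2b27 turned to 1.24 in duct-like, 1.27 in MEC-like and 1.38 in non-epithelial cells, and in the arm that of Scgb2b2 turned to 0.20 and that of Scgb1b2 to 0.12. With DESeq2 the lower calls made up 25.3 to 28.7% of all calls in the 6 group comparisons and 73.4% in the arm. With free RNA subtracted, 4 members were lower in Car6-high-like and 9 in Ltf+-like cells. The family then made up a mean of 2.30% of the UMIs of duct-like, 1.83% of MEC-like and 1.65% of non-epithelial cells. These low means were largely set in advance, since the scaling tear products of non-epithelial cells were counted as free RNA. With no filter on low counts 26 members were lower in non-epithelial cells and 1 was higher in MEC-like cells, since more members were tested. With doublets kept 1 member was higher in Tfrc-high-like cells, and at resolution 0.5 there were 2 in Ltf+-like cells.

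With single libraries left out, 0 to 2 members were higher in Car6-high-like cells (0 without the female library, where 15 members and neither Scgb1b27 nor Scgb2b27 could be tested) and 13 to 23 lower in the arm (13 without male 2). Above free RNA were 1 to 2 members in the other acinar-like cells (2 without the female library or without male 1) and 0 to 1 in Car6-high-like cells (1 without male 1). Below it were 1 to 3 in Car6-high-like (3 without male 1), 0 to 1 in Ltf+-like (1 without the female library) and 1 to 3 in non-epithelial cells (3 without the female library). Scaled by Mucl2 alone, 0 members lay below free RNA in Car6-high-like and in non-epithelial cells. With free RNA from barcodes of 1 to 9 UMIs, 0 lay above it in the other acinar-like and 0 below it in non-epithelial cells. The mean correlation of partners over libraries was 0.78 for pair 2, 0.65 for pair 3 and 0.37 for pair 24 on log2 CPM, and 0.71 for pair 12 with Pearson's coefficient. In cells with at least 5000 family UMIs, a limit chosen after seeing the data, it was 0.81, 0.74 and 0.39 for pairs 3, 12 and 24. The causes were not tested. Of the log2 fold changes of single members under the alternatives, 272 kept direction and side of the threshold, 44 kept direction only and 5 turned. The free RNA barcodes held 67990 to 231705 UMIs per library, which limits verdicts on rare members.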
